A study of Mus musculus with 4 samples.

Results

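Binding of SOX2 at genes of the Wnt pathway was examined in chromatin of the mouse cerebral cortex. The set holds 38 genes, chosen by name as ligands, receptors, cytoplasmic parts, TCF/LEF transcription factors and regulators of the pathway, out of 21631 protein-coding genes. SOX2 is a transcription factor of neural stem cells that astrocytes also make. In ChIP-seq, the assay used, an antibody collects a protein with the DNA attached to it, and that DNA is sequenced. All 4 libraries came from 0.3 g of cortex of male C57BL/6 mice aged 2 months and described as wild type, 3 of them precipitated with a rabbit polyclonal antibody against SOX2 (IP) and 1 made from input chromatin without antibody. A label shared by all 4, the input included, names SOX2 as a transduced factor, which does not match wild-type tissue and was not used. The cortex was taken whole, so the values average over all its cell types. No library from tissue lacking SOX2 was analysed here. The 3 IP libraries held 32492927 to 41875666 sequenced tags and 15891 to 17730 peaks. Nothing in the labels says that they came from separate animals, so their spread could be only technical.

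In the Wnt pathway, secreted Wnt ligands bind Frizzled receptors and the co-receptors LRP5 and LRP6. Signals pass through Dishevelled proteins and stop a complex of AXIN, APC and GSK3 from destroying beta-catenin, which then enters the nucleus and works with TCF/LEF factors on target genes. In the brain the pathway is known for its roles in progenitor growth, regional patterning and the vasculature.

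A peak, or a region merged from overlapping peaks, was given to the nearest protein-coding gene when its centre lay inside the gene or within 50 kb of it. A region was called reproducible when peaks of all 3 IP libraries overlapped in it. Of the 38 genes, 18 (47.4%) had at least 1 reproducible region, and 22.5% of all protein-coding genes did. With a peak of any library counted, 31 of 38 (81.6%) had 1, against 44.9% of all protein-coding genes. The 18 genes carried 44 reproducible regions. At least 2 were found at 13 members, against 7.09% of all protein-coding genes, and at least 3 at 6 members, against 2.95%. The nearest gene need not be the one regulated. The Wnt genes also have more sequence in and around them to catch a region. A median of 86 kb, the gene itself included, lay nearest to a member within the limit, against 44 kb over all genes. Per Mb of such sequence, members held 11.8 reproducible regions and all genes 4.67. These differences were described and not tested, since the genes were chosen with earlier results of these data known.

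Reproducible regions were found at every level of the pathway. TCF/LEF factors and secreted inhibitors each had reproducible regions at 3 of 4 members. Receptors and co-receptors had them at 5 of 10 (8 of 10 without IP library 3, where Fzd1, Fzd5 and Lrp5 were added), the group of LGR receptors with the ubiquitin ligases ZNRF3 and RNF43 at 2 of 4, cytoplasmic parts at 3 of 8 (37.5%) and ligands at 2 of 8 (25%). The share of ligands is near the 22.5% of all protein-coding genes, and that of cytoplasmic parts is 1 gene above it. TCF/LEF genes held 15 of the 44 regions, more than any other level. The sequence in and around them had the highest median per gene, 181 kb, while its sum, 730 kb, was below the 806 kb of receptors. Per Mb they held 20.5 regions, against 8.28 for ligands, 8.62 for the LGR group, 8.68 for receptors, 10.7 for cytoplasmic parts and 13.7 for secreted inhibitors. Each level has 4 to 10 genes, and the differences between levels were not tested.

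**Figure D1:**
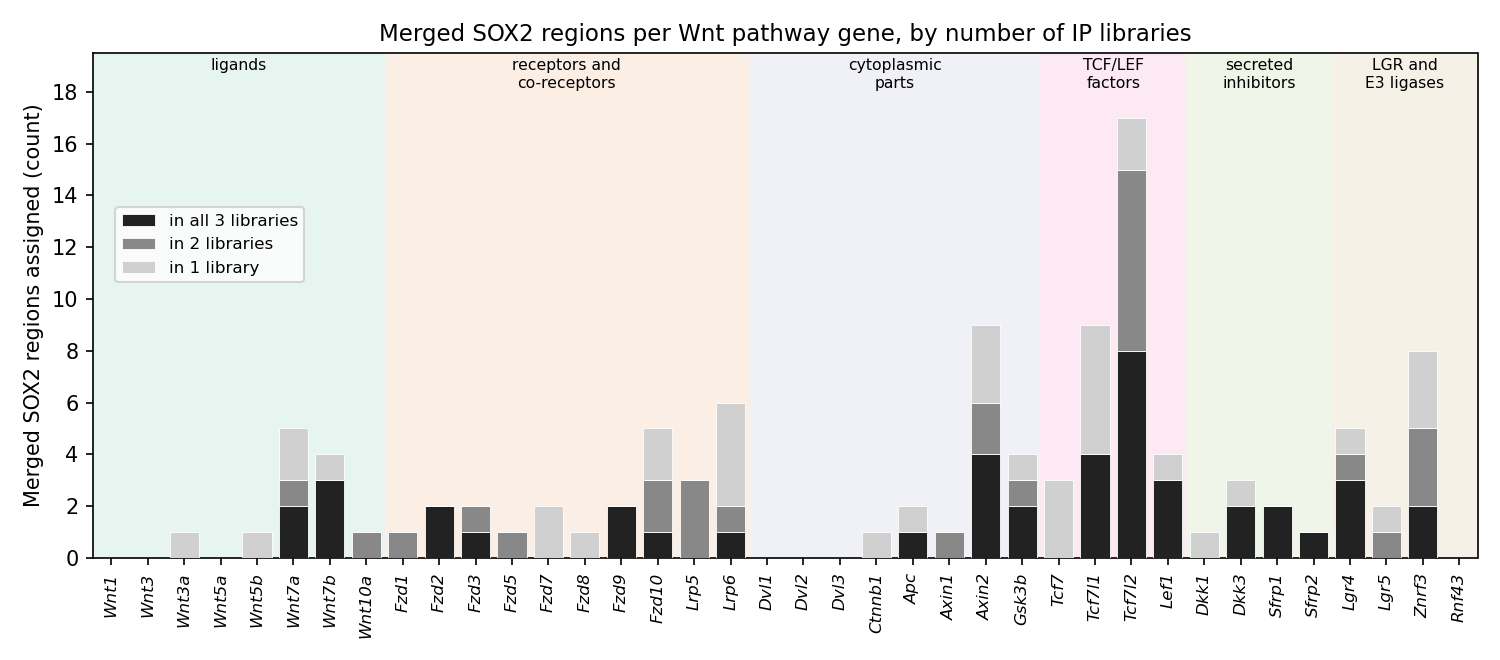
Number of merged SOX2 regions assigned to each of the 38 Wnt pathway genes (count, bars), split by whether peaks of 3, 2 or 1 IP library were found in the region, with genes ordered by role. Tcf7l2 has the most regions of all 3 libraries, 8, and the Dishevelled genes Dvl1, Dvl2 and Dvl3 have no region.

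Among the TCF/LEF factors, the DNA-binding partners of beta-catenin, Tcf7l1 carried the strongest region of the whole set. Tcf7l1 encodes TCF3, known mainly as a repressor of Wnt targets. This region, inside the gene at chr6:72730529-72730713 (mm10) and 58.4 kb past its start, held 30.0, 28.9 and 25.8 normalized tags in IP libraries 1, 2 and 3. Normalized tags are the authors' tag number in a peak scaled to a library of 10000000 tags. The values correspond to 109, 94 and 108 tags, and the lowest has a 95% Poisson interval of 21.2 to 31.1 for counting error only. The 3 libraries differed little there, with a mean of 28.2 ± 2.18 (SD, n = 3) and rank 70 of all 9334 reproducible regions. By the authors' values, the IP exceeded the input there by 28.3-fold to 32.9-fold.

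Tcf7l1 had 3 further reproducible regions, all inside the gene. The second, at chr6:72711292-72711532, held 14.0, 14.2 and 11.9 normalized tags (13.4 ± 1.27, SD, n = 3). Another lay 1.52 kb past the start of the gene and held 7.71, 8.93 and 5.73, and the weakest held 6.06, 5.54 and 4.30. The regions of this 1 gene thus ran from percentile 14.1 to percentile 99.3 of all reproducible regions.

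Tcf7l2, which encodes TCF4, an effector of Wnt signalling, showed another layout, with 8 reproducible regions of mostly low strength. Only 35 of the 21631 protein-coding genes (0.162%) had as many. The strongest, inside the gene at chr19:55838136-55838312, held 11, 12.0 and 11.9 normalized tags (11.6 ± 0.551, SD, n = 3). The other 7 had means from 4.85 to 7.07 and lay in percentiles 7.02 to 42.8. The gene also had 7 regions of 2 libraries and 2 regions of 1 library, and it has 292 kb of sequence nearest to it, the most of any member.

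One of the regions of 2 libraries lay just before the start of Tcf7l2. It held 6.88 and 6.46 normalized tags in IP libraries 1 and 2, at 45.3-fold and 42.6-fold over the input. The input is listed there at the floor of 0.5 tags, on which these folds depend. No peak of IP library 3 overlapped it, but a separate region just inside the gene held 4.00 and 4.06 in IP libraries 2 and 3. The part of the former region in the RefSeq promoter window (GRCm38.p6) is shown because it holds letters of the SOX motif, in capitals. Promoter windows hold 250 bases before and 50 bases after a RefSeq gene start, and only bases before the start are shown, read in the direction of transcription. The letters searched were ACAATG and ACAAAG for SOX factors and ATCAAAG for TCF/LEF factors, on both strands. ACAAAG and ATCAAAG share their last letters CAAAG, but 1 position cannot match both.
Tcf7l2, chr19:55741560-55741672, plus strand: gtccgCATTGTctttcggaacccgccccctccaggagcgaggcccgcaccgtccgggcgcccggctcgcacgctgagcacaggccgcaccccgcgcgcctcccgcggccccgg
The match CATTGT, the reverse complement of ACAATG, starts 245 bases before the gene start. Over the same stretch of all 32851 RefSeq promoter windows, 12.8% held SOX letters and 1.52% held TCF/LEF letters.

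Lef1, a factor that activates Wnt targets with beta-catenin, had 3 reproducible regions. The strongest lay 37.5 kb before the gene and held 9.91, 14.8 and 6.45 normalized tags. The spread was wide, with IP library 2 highest and IP library 3 lowest. The other 2 held 9.08, 5.85 and 6.45 at 4.23 kb before the gene, and 6.33, 4.62 and 6.45 inside it. Tcf7, which encodes TCF1, was the member of this level without a reproducible region. Its 3 peaks, with 5.54, 5.23 and 4.78 normalized tags, lay at separate places, 2 of them found in IP library 2 and 1 in IP library 3.

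**Figure D2:**
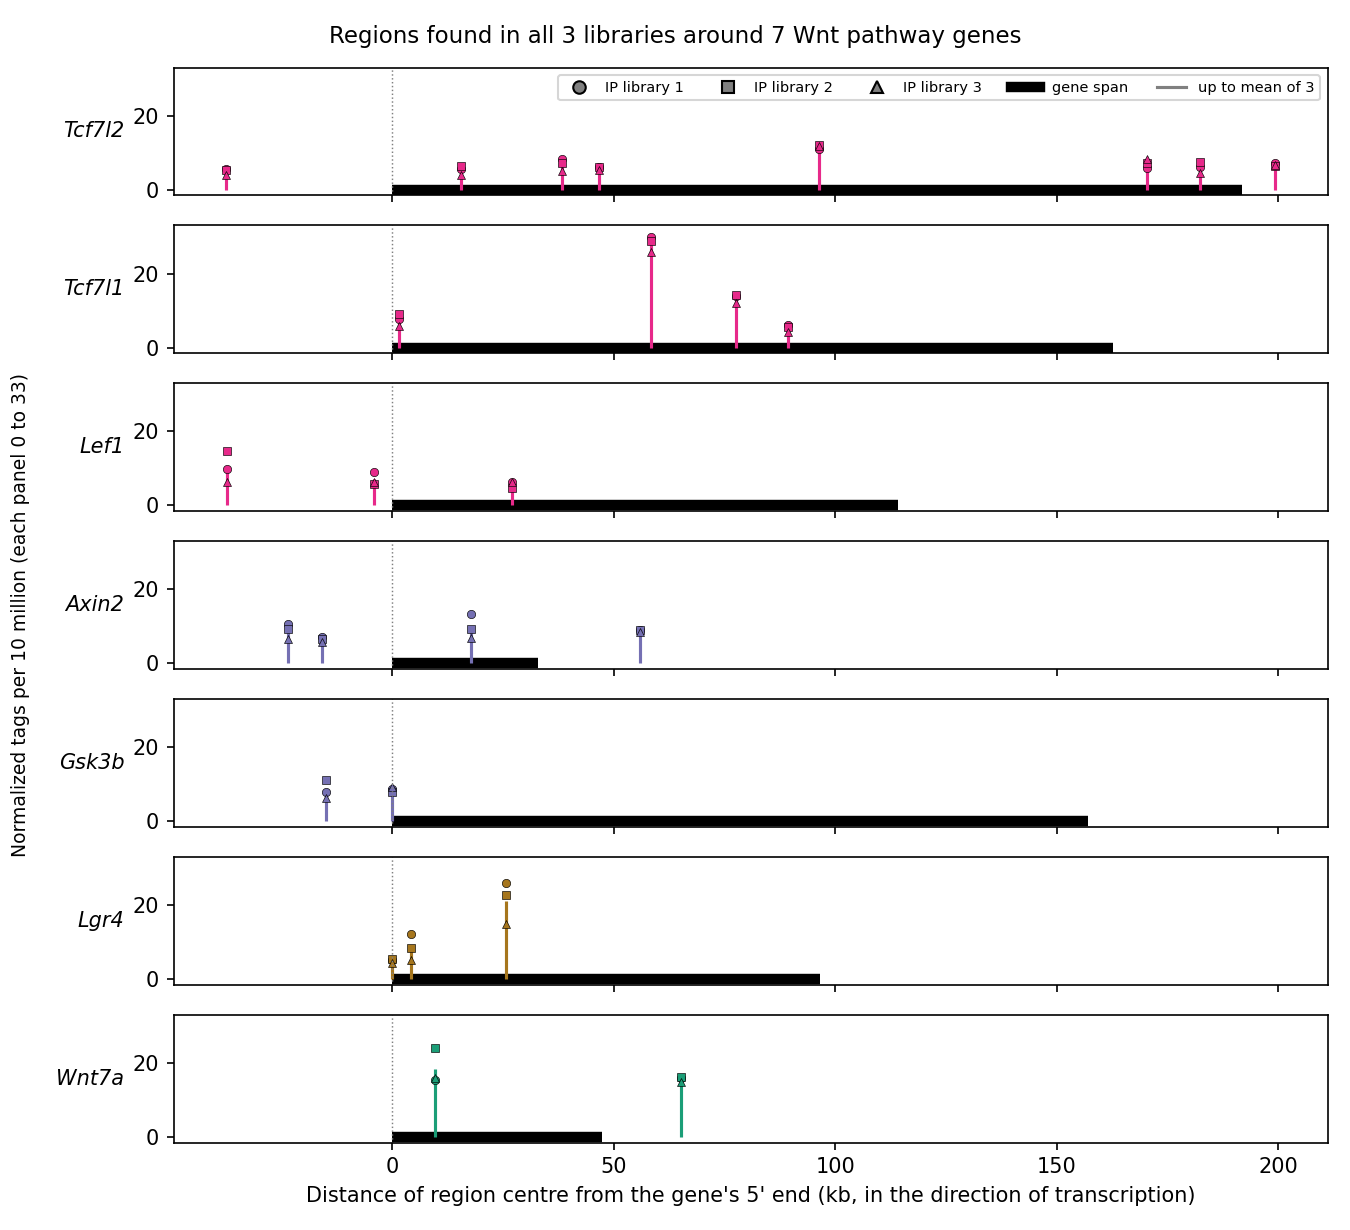
Reproducible SOX2 regions around 7 Wnt pathway genes with a known strand. The horizontal axis is the distance of the region centre from the 5' end of the gene in kb, the vertical axis the normalized tags per 10000000, symbols are the 3 IP libraries, vertical lines reach the mean and black bars are gene spans. The strongest region of Tcf7l1 stands 58.4 kb inside the gene, while the 8 regions of Tcf7l2 are spread over and around the gene at means of 4.85 to 11.6.

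Of the 8 ligands, Wnt7a and Wnt7b carried all 5 reproducible regions of this level. The proteins WNT7A and WNT7B are closely related and are known for acting on brain endothelium through the receptor partners GPR124 and RECK. The strongest region of Wnt7a, inside the gene at chr6:91401627-91401807, held 15.4, 24.0 and 16.0 normalized tags (18.5 ± 4.80, SD, n = 3). IP library 2 stood above the other libraries there, while enrichment was at least 50.8-fold in each. The input is listed at 1 tag there against each library, so these folds depend on that tag. A second region of Wnt7a, 17.8 kb beyond the far end of the gene at chr6:91346078-91346305, was steadier, with 16.0, 16.3 and 15.0 (15.8 ± 0.681).

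For Wnt7b the strongest region lay 31.8 kb from the gene, at chr15:85613548-85613728, and held 24.2, 19.7 and 12.7 normalized tags (18.9 ± 5.80, SD, n = 3). IP library 3 was lowest. The 95% Poisson interval of IP library 1, 19.4 to 29.8, does not reach that of IP library 3, 9.48 to 16.6. The next nearest protein-coding gene lay 110 kb away. A second region, 44.1 kb outside the gene and the farthest from its gene of all 44, held 9.91, 13.2 and 9.07. The third, inside the gene, held 4.4, 10.5 and 4.30.

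The other ligands had few or no peaks assigned to them. Reproducible regions within 50 kb of Wnt1, Wnt3, Wnt5b and Wnt10a were given to a neighbour. Wnt1, Wnt3 and Wnt5a had no peak in any library, with 14, 46 and 86 kb of sequence nearest to them. Wnt3a and Wnt5b, a ligand of canonical and a ligand of mainly beta-catenin-independent signalling, each had 1 peak, in IP library 2, of 4.62 and 4.92 normalized tags. Wnt10a had 1 region of IP libraries 1 and 3, with 5.78 and 5.49.

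Each of the 10 receptors had a peak in at least 1 library, against 5 of 8 ligands and 44.9% of all protein-coding genes. So did each of the TCF/LEF factors and secreted inhibitors. Frizzled proteins are the seven-pass membrane receptors of Wnts. Fzd3, known for its part in axon guidance, had the strongest region of the level, inside the gene at chr14:65245487-65245742, with 12.7, 11.4 and 11.7 normalized tags (11.9 ± 0.681, SD, n = 3). Fzd10 followed with 10.7, 12.9 and 10.5 at chr5:128576088-128576252, 24.9 kb before its start. The values of Fzd3 and Fzd10 overlapped.

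Fzd2 was the receptor with reproducible regions within 1 kb of a gene end. Fzd1, Fzd3, Fzd10 and Lrp6 had regions of 2 libraries that close to an end. At Fzd2, a region 0.757 kb outside the gene held 11.3, 12.0 and 10.5 normalized tags (11.3 ± 0.751, SD, n = 3), and a second, which spans 1 end of the gene, held 9.08, 8.31 and 8.60 (8.66 ± 0.389). Fzd9 had 2 regions before its start, at 7.53 and 13.2 kb, with means of 9.50 ± 1.57 and 9.93 ± 3.13. The farther of them held 13.5 in IP library 1 and 7.69 and 8.60 in the others. Lrp6, a Wnt co-receptor, had the weakest strongest region of the receptors, with 5.51, 7.39 and 3.82 inside the gene.

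The 5 other receptors had peaks that did not recur in all libraries. Lrp5, the paralogue of Lrp6, had 3 regions of 2 libraries each, and the strongest held 10.8 and 7.16 normalized tags in IP libraries 2 and 3. Fzd1 and Fzd5 each had 1 region of IP libraries 1 and 2, with 5.23 and 5.23 for Fzd1 and 4.95 and 7.39 for Fzd5. Fzd7 had 2 peaks at separate places, of 4.13 in IP library 1 and 5.54 in IP library 2. Fzd8 had 1 peak in IP library 3, with 4.30. The weaker of these values are near the lowest that a peak could have, since the peak caller required 13 to 16 tags, and 1 tag is worth 0.239 to 0.308 normalized tags. Some reproducible regions were at that limit too. Lrp6 and the weakest region of Tcf7l2 each had 16 tags in IP library 3, the fewest required there. The weaker region of Sfrp1 had 13 tags in IP library 2, the fewest required there, at 4.39-fold over the input.

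Among cytoplasmic parts, all reproducible regions belonged to the beta-catenin destruction complex: Apc, its scaffold, Axin2, a scaffold that is also a common Wnt target gene, and Gsk3b, its kinase. Apc held 22.3, 18.5 and 18.4 normalized tags (19.7 ± 2.22, SD, n = 3) at a region inside the gene, at 15.1-fold to 18.4-fold over the input. Axin2 had 4 reproducible regions, as many as Tcf7l1, with 110 kb of sequence nearest to it against 194 kb. At least 4 were found in 1.38% of all protein-coding genes, and in 3 members. Its strongest region, inside the gene at chr11:108935331-108935575, varied with 13.2, 9.23 and 6.93 (9.79 ± 3.17). The other 3 lay outside the gene at 16.0 to 23.6 kb, and the steadiest of them held 9.08, 8.93 and 8.36.

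Gsk3b had a region at its start, with 8.81, 8.00 and 9.31 normalized tags (8.71 ± 0.661, SD, n = 3) and a centre 0.099 kb before the start, and another 15.0 kb before the start with 7.98, 11.1 and 6.21. The part of the former before the gene start, from the RefSeq promoter table (GRCm38.p6), is shown with that of Lgr4 because, of the members in that table, these 2 have a reproducible region in the bases before the start. Neither holds the SOX or TCF/LEF letters. Capitals mark CCAAT boxes (CCAAT or, on the other strand, ATTGG), a common promoter element that was searched after these letters were seen. CCAAT and ACAATG share CAAT but cannot match at the same position.
Gsk3b, chr16:38088782-38089000, plus strand: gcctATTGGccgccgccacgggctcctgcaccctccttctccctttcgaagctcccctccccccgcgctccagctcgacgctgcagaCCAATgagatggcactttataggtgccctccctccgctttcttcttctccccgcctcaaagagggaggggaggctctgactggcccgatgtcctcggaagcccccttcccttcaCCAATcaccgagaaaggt
Lgr4, chr2:109917397-109917589, plus strand: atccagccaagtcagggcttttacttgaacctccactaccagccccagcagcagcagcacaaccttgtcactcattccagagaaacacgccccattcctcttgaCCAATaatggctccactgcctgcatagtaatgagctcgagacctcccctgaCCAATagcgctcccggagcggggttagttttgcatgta
The Gsk3b stretch has 3 matches to CCAAT and the Lgr4 stretch 2. Over the same stretch of all promoter windows, 2.32% had at least 3 and 6.44% at least 2. SOX letters were present in 22.4% and 20.5% of all windows over these stretches, and TCF/LEF letters in 2.76% and 2.57%. The promoter table has 24 of the 38 genes, and 9 of their 33 windows (27.3%) hold SOX letters, against 28.6% of all windows. CCAAT was in 7 of the 33 (21.2%), against 37.4% of all windows, so it was not more common at members. A match is a string of letters and no measure of binding.

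The remaining cytoplasmic parts were sparse. Dvl1, Dvl2 and Dvl3, which carry the signal from Frizzled receptors, had no peak in any library. They also have little sequence of their own, 10 to 20 kb each, because other genes lie close by. A reproducible region of 15.1, 13.2 and 11.9 normalized tags lay 1.28 kb from Dvl3 but nearer to Ap2m1, at 0.189 kb. Another, of 6.61, 14.2 and 7.40, lay 5.12 kb from Dvl2 and 0.296 kb from Phf23. Ctnnb1, which encodes beta-catenin itself, had 1 peak, of 5.01 normalized tags in IP library 3, and Axin1 had 1 region of IP libraries 2 and 3 with 4.62 and 4.06.

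Secreted inhibitors such as SFRP1 and DKK1 bind Wnts or their co-receptors outside the cell. Dkk3, a divergent member of the Dickkopf family, had the strongest region of this level, 11 kb outside the gene at chr7:112170355-112170599. It held 15.1, 10.5 and 12.9 normalized tags (12.8 ± 2.30, SD, n = 3). The input is listed at the floor of 0.5 tags there against each library, so the authors' folds of 68.9 to 99.7 depend on that floor. Sfrp1, a soluble Frizzled-like decoy, held 9.63, 10.5 and 8.60 at a region 20.8 kb outside the gene. Its second region, inside the gene, was the weakest of all 44, with 6.06, 4.00 and 4.06. Sfrp2, a related decoy, held 7.43, 4.62 and 4.30 at 1.27 kb outside the gene. Dkk1, an inhibitor that binds LRP co-receptors, had 1 peak in IP library 3 only, with 3.82.

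The last level sets how many Wnt receptors stay on the cell surface. LGR4 and LGR5 are receptors for R-spondins, which amplify Wnt signals, and ZNRF3 and RNF43 are ubiquitin ligases that remove Frizzled receptors. Lgr4 had the second strongest region of the set, inside the gene at chr2:109943219-109943383, with 26.1, 22.8 and 14.8 normalized tags (21.2 ± 5.81, SD, n = 3). IP library 3 was the lowest. IP library 3 was also lowest at a further region inside the gene, with 12.1, 8.31 and 5.25, while the region just before its start differed less, with 5.23, 5.54 and 4.30.

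Znrf3 held 16.2, 19.4 and 15.5 normalized tags (17.0 ± 2.08, SD, n = 3) at chr11:5318083-5318266 inside the gene, and 4.95, 5.23 and 4.54 at a second region. It also had 3 regions of 2 libraries. Its partner Rnf43 had no peak in any library. Lgr5, the paralogue of Lgr4 and a stem cell marker in other tissues, had 1 region of IP libraries 1 and 3, with 5.23 and 5.01, and 1 peak of 3.85 in IP library 1.

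Ordered by the mean of their strongest region, the members fell into a leading gene, a group of 5 and a longer tail. In each of the 3 libraries Tcf7l1 was above every other member. Lgr4, Apc, Wnt7b, Wnt7a and Znrf3, at means of 21.2 to 17.0 normalized tags, overlapped in their library values, and their order differed between libraries. Dkk3 (12.8) came next and was below Lgr4, Apc, Wnt7a and Znrf3 in each library. In IP library 1 the gap to Wnt7a was small, at 15.1 against 15.4. Nor was Dkk3 apart from the tail in IP library 2. It held 10.5 there, below Lef1 (14.8), Fzd10 (12.9), Fzd2 (12.0), Tcf7l2 (12.0) and Fzd3 (11.4). In IP library 3 it was level with Wnt7b, at 12.9 against 12.7. The remaining 11 genes had means from 11.9 for Fzd3 down to 5.45 for Sfrp2.

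**Figure D3:**
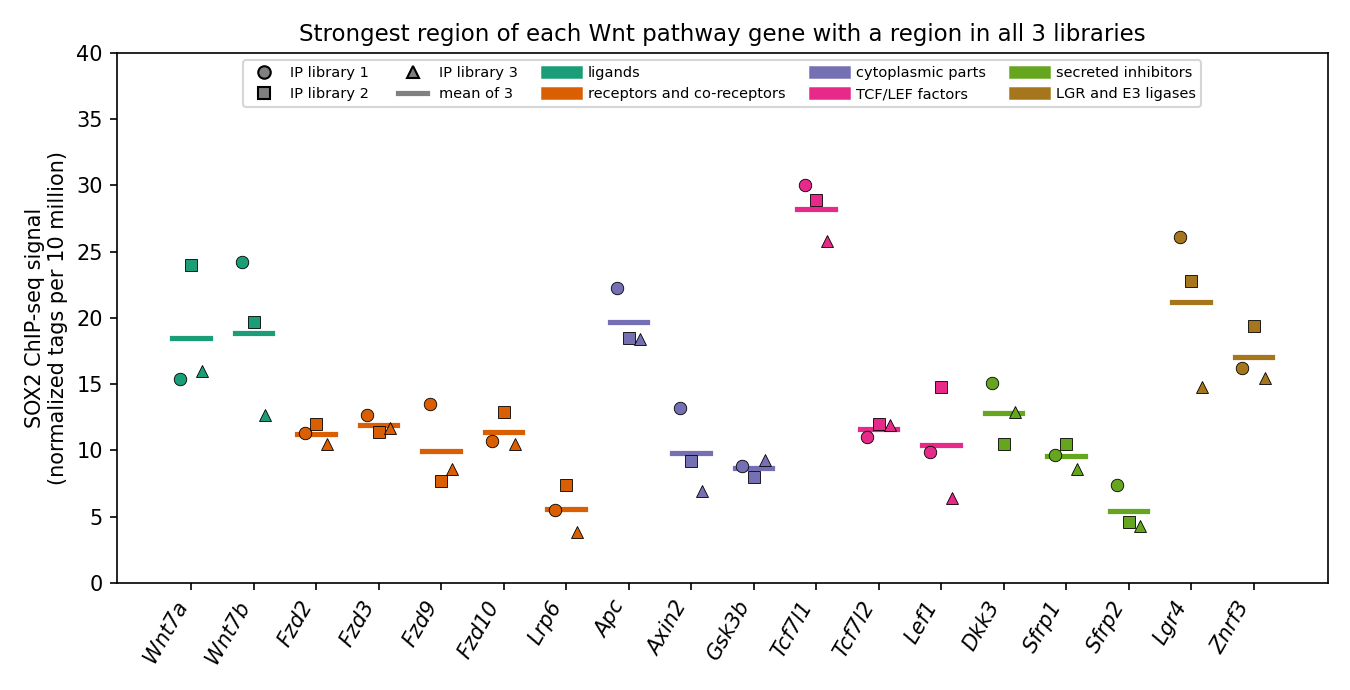
Normalized tags per 10000000 in the strongest reproducible region of each of the 18 Wnt pathway genes that had 1. Symbols are the 3 IP libraries, horizontal lines their mean and colours the role. Tcf7l1 is highest, at 25.8 to 30.0, while Lrp6 and Sfrp2 are lowest, at 3.82 to 7.43.

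The 44 regions covered nearly the whole range of strengths. Their median was 8.69 normalized tags, against 7.58 over the 7753 reproducible regions assigned to any protein-coding gene, and 17.9-fold over the input against 14.9-fold. Of the 44, 7 (15.9%) lay above percentile 90 of all reproducible regions and 11 (25%) below percentile 25. By level, the median percentile was 91.2 for the 5 regions of ligands, 70.8 for the 7 of receptors, 61.9 for the 7 of cytoplasmic parts and 59.8 for the 5 of the LGR group. It was 38.8 for the 15 of TCF/LEF factors and 22.6 for the 5 of secreted inhibitors. The 5 ligand regions came from only 2 genes and ran from percentile 32.7 to 95.1. Of the 15 TCF/LEF regions, 8 were those of Tcf7l2, while the strongest of all was at Tcf7l1. Regions of 1 gene are not separate members of a level, so these medians describe few genes.

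**Figure D4:**
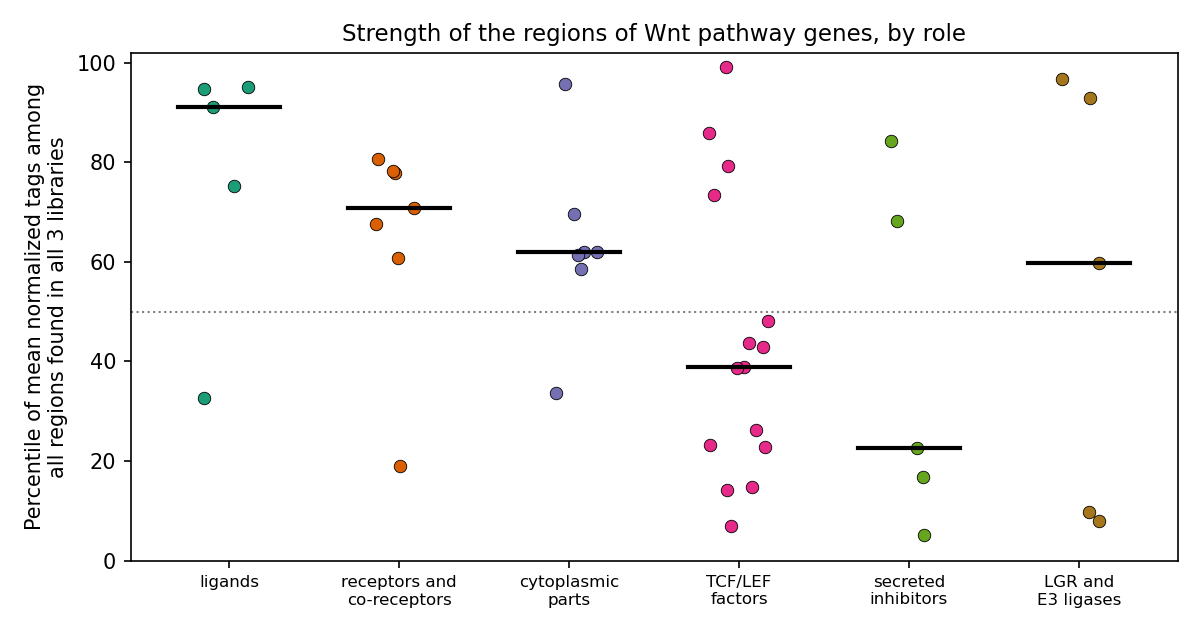
Percentile of the mean normalized tags of each of the 44 reproducible regions among all 9334 reproducible regions, by role of the gene. Points are regions (shifted sideways at random to be seen), black lines are medians and the dotted line is the median of all regions. Medians run from 22.6 for secreted inhibitors to 91.2 for ligands.

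The regions lay away from gene ends more often than those of other genes. Of the 44, 4 (9.09%) were centred no more than 1 kb from a gene end, namely 2 of Fzd2 and 1 each of Gsk3b and Lgr4, against 23.3% of all assigned regions. Another 23 (52.3%) lay deeper inside the gene, against 54.1%, and 13 (29.5%) lay 10 to 50 kb outside it, against 14.0%. Members have more sequence in and around them than other genes, as given above. They are also longer, with a median of 40.5 kb against 17.3 kb over all genes. The part of either in the difference was not tested. The gene table gives no exons, so exons and introns could not be told apart inside genes.

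Agreement between libraries was like that of other regions. The SD over the 3 libraries had a median of 17.8% of the mean at the 44 regions and 17.2% over all assigned regions. IP library 3 was lowest in 31 of 44 (70.5%), against 60.2% of all assigned regions, and its value was 0.843 times the mean of the other 2 libraries at the median in both sets. Counting also the regions of fewer libraries, 44 of 109 merged regions of members (40.4%) were reproducible, against 34.0% of those of all genes. A further 27 were found in 2 libraries and 38 in 1.

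Some reproducible regions close to members were given to a neighbour. In all, 24 lay within 50 kb of a member but nearer to, or inside, another gene, and 12 of the 20 members without a region of their own had such a region. The strongest held 13.8, 22.8 and 11.7 normalized tags at 26.6 kb from Wnt1 and 0.131 kb from Arf3. Of the regions given to members, that of Wnt7b at 44.1 kb was the last one inside the 50 kb limit. Of those given to a neighbour, the last lay 48.1 kb from Fzd2, inside Gpatch8. The nearest beyond the limit, of 7.61 ± 1.64 (SD, n = 3), lay 54.1 kb from Dkk3 and 12.2 kb from Mical2. A region of 6.67 ± 2.03 (SD, n = 3) lay 71.3 kb from Wnt7b with no gene within the limit. Another of 11.2 ± 0.702 lay 82.1 kb from Axin2.

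Of 76 other genes of the pathway, 31 (40.8%) had a reproducible region, against 22.5% of all protein-coding genes. A peak in any library was found at 46 (60.5%), against 44.9%. Like the members, these genes have more sequence nearest to them, with a median of 85 kb against 44 kb over all genes. The differences were not tested. Corepressors of the Groucho family bind TCF/LEF factors and keep Wnt targets off. They had 5 regions at Tle4, 6 at Tle1, 3 at Tle3 and 1 at Tle2, which was named after its value was seen. Of all protein-coding genes, 2.95% had at least 3 regions and 1.38% at least 4. From the strongest regions of Tle1 and Tle3, the next nearest protein-coding gene lay 388 and 491 kb away. The strongest region of Tle4 held 16.5, 20.6 and 20.1 normalized tags, that of Tle1 held 19.8, 19.4 and 16.0, and that of Tle3 held 16.2, 14.2 and 13.6. The highest of all 76 were Ctnnd2, which encodes delta-catenin, a relative of beta-catenin at synapses, and Csnk1a1, the casein kinase that starts the phosphorylation of beta-catenin. Ctnnd2 held 19, 24.9 and 18.6, and Csnk1a1 held 18.7, 25.2 and 15.8 at 24.0 kb outside the gene. Daam2, a formin that acts downstream of Dishevelled, held 16.5, 16.6 and 15.5 and had 5 regions.

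Vangl2, a core planar polarity gene, had a region just before its start with 13.2, 17.5 and 12.4 normalized tags. It was chosen after its values were seen, for its place in a promoter window, and its stretch holds SOX letters, in capitals.
Vangl2, chr1:172027346-172027536, minus strand: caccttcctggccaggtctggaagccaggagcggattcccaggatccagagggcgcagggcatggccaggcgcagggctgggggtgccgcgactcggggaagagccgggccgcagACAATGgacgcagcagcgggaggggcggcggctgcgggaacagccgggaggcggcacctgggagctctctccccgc
The match ACAATG starts 126 bases before the gene start, and 20.4% of all promoter windows hold SOX letters over the same stretch.

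For background on the tissue, 8 of 8 astrocyte markers, Aqp4 and Gja1 among them, had a reproducible region. So did 3 of 8 markers of neurons, 3 of 8 of the oligodendrocyte lineage, 2 of 8 of endothelial and mural cells and 1 of 8 of microglia, beside 22.5% of all protein-coding genes. Hepatocyte genes, which do not mark any cortical cell type, had 3 of 8, as many as neurons. With a peak of any library counted, the numbers were 8 for astrocytes, 7 for neurons, 6 for the oligodendrocyte lineage, 4 for endothelial and mural cells, 3 for microglia and 3 for hepatocytes, beside 44.9% of all genes. The lists differ in the sequence nearest to their genes. Its median was 86 kb for astrocytes, 134 kb for neurons and 60 kb for the oligodendrocyte lineage. It was 105 kb for endothelial and mural cells, 40 kb for microglia and 43 kb for hepatocytes, against 44 kb over all genes. The lists are short, were chosen with earlier results of these data known and were not tested, so they are no independent check.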

How the data were processed

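Peaks of SOX2 ChIP-seq were analysed in 3 IP libraries, each called against 1 input library. Bowtie 1.0.0, HOMER 4.7 and mm10 are listed in the submitters' processing notes. Per the file headers, peaks were called in each library alone with HOMER findPeaks at no less than 4-fold over the input and over the surrounding 10 kb. The Poisson p-value had to be at most 1e-04 and the false discovery rate 0.001, per the file headers. The deposited normalized tags are a signal per peak, scaled by the authors to 10000000 tags. The authors' fold is a ratio of IP tags over input tags, whose lowest listed value is 0.5. The peak score, the focus fraction and the whole tag counts of IP library 2 were deposited as well; only the score was used, in 1 alternative. Per the file headers, at most 2 tags per bp were considered in IP library 3 and 1 in the others.

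Peaks overlapping by 1 bp or more were merged in chains, and a region took the strongest peak of each library. Each centre went to the nearest of 21631 protein-coding genes of RefSeq GRCm38.p6 within 50 kb. The sequence nearest to each gene was measured in steps of 2000 bp. Promoter sequences came from RefSeq (GRCm38.p6), with 24 of 38 genes matched. Tags were recomputed from normalized tags and library totals (32492927 to 41875666), and exact Poisson intervals of 95% cover counting error only.

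The members and gene lists were chosen with earlier results of these data known, so lists are described by counts beside those of all genes, without a test. Of the other pathway genes, the 6 with the highest percentile were named, and Vangl2 and Tle2 were added later. Merging was run on simulated data whose planted peaks overlapped in every library. Assignment was compared there only with the same nearest-gene rule, so that run could not show the rule to be wrong. The alternatives were overlap, peak strength, window, assignment, number of libraries and omission of each library. Scripts ran in Python 3.11.15 with scipy 1.17.1, pandas 2.3.3, numpy 2.4.6 and matplotlib 3.10.9.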

Additional observations from a re-analysis of the deposited data

How the results depend on the processing

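The 18 genes with a reproducible region remained so with an overlap of 0.5 of each peak, a window of 100 kb or without any 1 library. Of all genes, 20.7% had a region with that overlap and 23.4% with that window. Without 1 library, both others had to hold the region. Then 20 to 21 genes had 1, against 25% to 26.4% of all genes. Any peak was found at 28 to 31, against 40.6% to 41.5% of all genes. The number of regions was then 48 to 56 instead of 44, and receptors went to as many as 8 of 10 without IP library 3, from 5, with 5 the lowest. With only the stronger 0.5 of peaks by score, Lrp6 and Sfrp2 dropped out and 28 regions were left. At 8-fold enrichment or more, Fzd9 dropped out. With a window of 5 kb, Fzd9 and Fzd10 dropped out, leaving 29 regions and 3 receptors. Inside genes only, 13 members, 23 regions and 2 receptors were left. In the settings where members dropped out, the share of all genes with a region was also below the 22.5% given above. It was 15.2% with the stronger 0.5 of peaks, 15% at 8-fold or more and 14.4% inside genes only. The window of 5 kb lowered that share least. With regions of at least 2 libraries, 24 members, 8 receptors and 71 regions were counted, against 31.2% of all genes. Counting a region for every gene within 50 kb gave 30 members against 46.6% of all genes, with 68 regions, 6 ligands, 8 receptors and 7 cytoplasmic parts; this setting includes all 3 Dishevelled genes. Of 97 values over 11 alternatives, 84 were within 1.5 times the value given. No paired analysis was possible because peak tables of the IP group alone were analysed, and no test compares it with another group. Peaks of 13 to 16 tags limit what can be seen at the 20 members without a region.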
